A study of Mus musculus with 4 samples.

Results

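CCR7 and its chemokine ligands were followed here as 4 genes: Ccl21a and Ccl19, which encode the ligands, Ccr7, which encodes their receptor, and Ackr4, which encodes a receptor that removes them. They were taken by symbol from the gene list of the deposited matrices, and all 4 were found among its 33696 genes. The matrices came from single-cell RNA-seq of samples labelled as the mouse P3 digit, after amputation of the digit tip. P3 is the terminal phalanx with its nail, skin and bone. For cell preparation, the study's methods have the digits cut at the proximal level of P2, the phalanx next to P3. The pools thus also held tissue outside P3. There were 4 libraries with 1 per condition, each pooling digits 2 to 4 of the hind limbs of 10 female C57BL/6 mice (C57BL/6J in the study's methods) aged 6 to 8 weeks. Digits 2 and 4 carried the amputation, so each pool also held digits that were not amputated. The SAR131675 library came from mice fed the VEGFR3 inhibitor SAR131675 in chow (30 mg per kg of chow) for 8 days per the series text, and the control diet library from mice on the matched chow. The study's methods have this chow begin before amputation and go on throughout, and its text is not uniform on the day of sampling, so the length of feeding at sampling is uncertain. The LNR library came from limbs whose inguinal and popliteal lymph nodes had been removed, and the sham library from its sham-operated control, labelled as untreated. The study took the other limb of the operated mice as its sham side, so both libraries may come from the same mice. The inhibitor was given to the whole animal through its food, and the nodes were taken from the limb and not from the digit. Each library was its own batch (batches 1 to 4), so batch and condition cannot be told apart, and no p-value can be given for a condition.

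CCL21 and CCL19 are chemokines that attract cells carrying the receptor CCR7. CCL21 is made by lymphatic endothelial cells and held on the vessel wall, where it guides dendritic cells into skin lymphatics, while CCL19 is soluble and best known from the stromal cells of lymph nodes. CCR7 is carried by naive lymphocytes, B cells and dendritic cells that have matured and are leaving the tissue. ACKR4 binds both ligands and takes them up without signaling to the cell, and in skin it is known from keratinocytes and fibroblasts.

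Levels are given in CPM, the UMIs of the gene per 1000000 UMIs of the cells named, where a UMI is 1 counted RNA molecule. All intervals are 95% intervals for counting error (Poisson for levels, exact conditional for log2 ratios, Clopper-Pearson for shares) and do not cover the spread between mice. Barcodes within the limits used by the study for cells (200 to 5500 genes, at most 30000 UMIs and at most 10% mitochondrial UMIs) numbered 29076 for SAR131675, 24030 for control diet, 19827 for LNR and 20669 for sham, with medians of 11316, 10712, 5725 and 5851 UMIs per cell. The diet matrices named another version of the counting software than the LNR and sham matrices, so ratios between libraries were formed only within a pair. Where levels of both pairs stand together, software and depth differ as well. The ranking of genes by correlation pools all 4 libraries. Within a pair, 210 kept barcodes of the diet libraries and 101 of the LNR and sham libraries occurred in both. Cell classes were built by clustering without these 4 genes and named "-like" from marker genes.

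The identity of Ccl21a UMIs needed care, because mice carry nearly identical copies of this gene. Background knowledge assigns Ccl21a to lymphoid organs and the other copies to lymphatic vessels elsewhere. In the GENCODE M21 transcripts (GRCm38), the 870-base transcripts of Ccl21a and Ccl21d differed at 6 positions (G24A, T159A, C269T, C640T, T812C and G856A, Ccl21a base first, counted from base 1 of the transcript). The T159A and C269T differences lay in the coding part of 399 bases, and Gm13304, Ccl21b and Gm10591 shared both with Ccl21d. The stretch from base 150 to base 280 that holds them is shown 5′ to 3′ with these bases in capitals, since only such bases tell the copies apart.
Ccl21a: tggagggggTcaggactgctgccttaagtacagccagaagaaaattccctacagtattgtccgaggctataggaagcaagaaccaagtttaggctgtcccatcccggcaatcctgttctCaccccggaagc
Ccl21d: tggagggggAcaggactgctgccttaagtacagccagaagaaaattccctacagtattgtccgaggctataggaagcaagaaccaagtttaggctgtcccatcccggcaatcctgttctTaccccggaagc
In the kept cells, Ccl21a had 22462 UMIs in SAR131675, 22460 in control diet, 14036 in LNR and 12028 in sham. Ccl21d had 16, 12, 22 and 24 UMIs in the same order, and these lay in cells of the lymphatic endothelial (LEC-like) class except for 1 of the sham UMIs. Ccl21b had at most 5 UMIs in a library, Gm13304 at most 2, and Gm10591 was at 0. The transcripts annotated for Ccl21b and Gm10591 were 402 bases long and ended with the coding part, while the assay reads the 3′ ends of RNAs. How reads that match several copies were counted was not given in the sources used here, so the split between Ccl21a and its copies is uncertain. In the GRCm38.p6 gene order, Ccl21a lay next to Ccl19.

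Ccl21a marked the LEC-like cells in every library. This class held 247 cells in SAR131675, 260 in control diet, 234 in LNR and 230 in sham, or 0.849%, 1.08%, 1.18% and 1.11% of the kept cells. Its markers were present: Mmrn1, a secreted glycoprotein of lymphatic vessels, was seen in 90.4% to 93.6% of its cells, and Prox1, the transcription factor that fixes lymphatic identity, in 70.5% to 93.1%. The level of Ccl21a in these cells was 13139 CPM in SAR131675 (12963 to 13317), 12109 in control diet (11947 to 12273), 9605 in LNR (9443 to 9770) and 8928 in sham (8764 to 9093). It was the gene with the second most UMIs in this class in both diet libraries and the third in LNR and sham. The LEC-like cells held between 94.5% and 94.7% of all Ccl21a UMIs in each library.

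**Figure D1:**
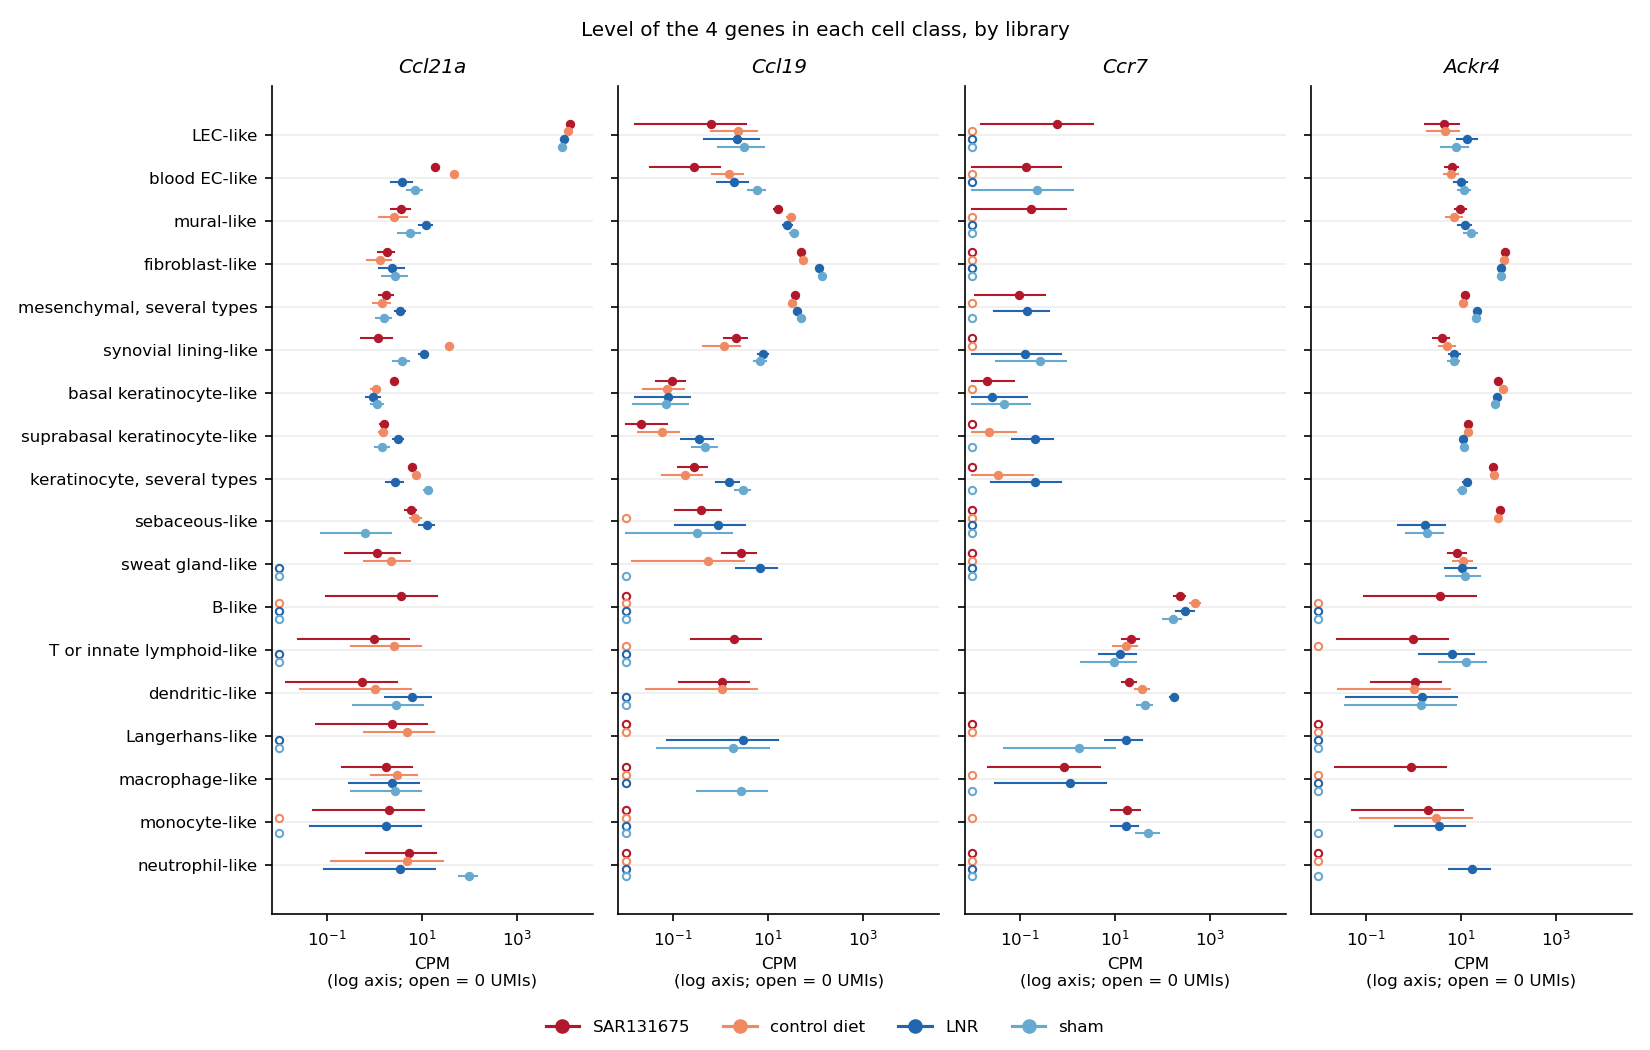
Level of Ccl21a, Ccl19, Ccr7 and Ackr4 in 18 cell classes, in CPM on a log axis. Points are the 4 libraries by color, lines are 95% Poisson intervals cut at the left edge, and open circles at the left edge mark 0 UMIs. Ccl21a stands at 8928 or more in LEC-like cells and below 100 in the other classes, of the classes shown Ccl19 is highest in fibroblast-like cells, Ccr7 in B-like cells, and Ackr4 in fibroblast-like and basal keratinocyte-like cells of all libraries and in sebaceous-like cells of the diet pair.

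LEC-like cells differed widely in Ccl21a. The cells ranged from 0 to 505 Ccl21a UMIs in SAR131675 with a median of 45, from 0 to 522 in control diet with a median of 43, from 0 to 596 in LNR with a median of 25, and from 0 to 416 in sham with a median of 28. The share with at least 1 UMI was 81.0% in SAR131675, 85.4% in control diet, 80.8% in LNR and 82.6% in sham. The median cell of this class held 5133, 5326, 3706 and 3820 UMIs of all genes. Among basal keratinocyte-like cells, which should lack this gene, the share was 0.699% to 1.86% at median depths of 6665 to 11671.

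Cells with a UMI of Lyve1, the hyaluronan receptor of capillary lymphatics, held most of the Ccl21a. In SAR131675 the level was 19080 CPM in the 155 LEC-like cells with a Lyve1 UMI and 3797 in the 92 without, a 5.03-fold difference. In control diet it was 15154 in 193 cells and 3102 in 67 cells, a 4.88-fold difference. In LNR it was 14493 in 125 cells and 2880 in 109 cells, a 5.03-fold difference. In sham it was 12133 in 141 cells and 3079 in 89 cells, a 3.94-fold difference. The median depth of the cells with and without Lyve1 was 5087 and 5384 in SAR131675, 5334 and 4951 in control diet, 4042 and 3272 in LNR, and 4170 and 2764 in sham. When the cells were sorted by Lyve1 after thinning each to 1500 UMIs, the difference was 3.93-fold, 3.66-fold, 4.22-fold and 3.14-fold in the same order. Other lymphatic genes followed unequally. Flt4, which encodes VEGFR3, was 2.32-fold to 2.94-fold higher in the cells with Lyve1 and Reln, which encodes the matrix protein reelin, 2.63-fold to 3.86-fold higher, while Prox1 was between 0.771-fold and 1.26-fold. Foxp2 and Cldn11, known from collecting vessels and valves, were lower in the cells with Lyve1 in all 4 libraries, Foxp2 at 0.272-fold to 0.428-fold and Cldn11 at 0.145-fold to 0.619-fold. Sorting by the collecting vessel and valve genes separated the cells less: Ccl21a was 1.33-fold, 1.42-fold, 1.39-fold and 1.16-fold higher in the LEC-like cells without a UMI of Foxp2, Cldn11 or Gata2, whose median depth was 2125 to 3254 UMIs against 5641 to 7032 in the cells with one.

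**Figure D2:**
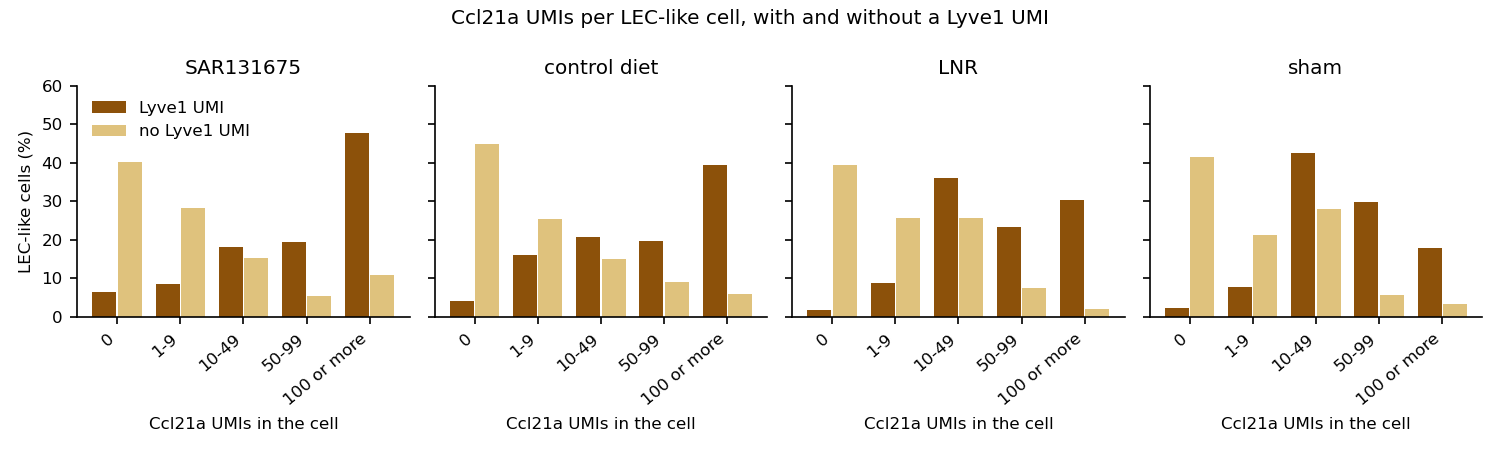
Share of LEC-like cells (percent) by the number of Ccl21a UMIs in the cell, for cells with and without a Lyve1 UMI, in 4 panels for the 4 libraries. Cells with 0 Ccl21a UMIs made up 1.60% to 6.45% of the cells with Lyve1 and 39.4% to 44.8% of those without, and cells with 100 or more made up 17.7% to 47.7% and 1.83% to 10.9%.

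Outside the LEC-like class, much of the Ccl21a sat in few barcodes and the rest was spread over many cells. Of 1242 UMIs outside the class in SAR131675, 10 barcodes with at least 10 UMIs each held 55.0%, and 9 of these barcodes also had UMIs of at least 2 of the 6 LEC markers. In control diet 17 barcodes held 62.0% of 1203 UMIs and 14 had the LEC markers, in LNR 13 held 72.8% of 746 and 12 had them, and in sham 9 held 36.8% of 661 and 9 had them. In all, 529, 363, 186 and 286 cells outside the class had a Ccl21a UMI. Without these barcodes, the level in all cells outside the class was 1.65 CPM in SAR131675, 1.73 in control diet, 1.44 in LNR and 2.80 in sham. Some groups stood above this without any such barcode: in sham the unnamed clusters had 12.6 CPM from 186 UMIs in 115 of 1326 cells, with 7 in the highest cell, and chondrocyte-like cells 27.5 from 20 UMIs in 9 cells. The higher points of blood endothelial-like cells in the diet pair (19.1 and 47.4) and of neutrophil-like cells in sham (96.7) rested on such barcodes: a single barcode held 131 of the 140 UMIs of the blood endothelial-like class in SAR131675, 4 held 244 of 255 in control diet, and 1 held 21 of the 22 UMIs of neutrophil-like cells in sham.

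Ccl19, the soluble ligand, was found in mesenchymal cells rather than in lymphatic or immune cells. The mesenchymal classes together held 88.9% of its 1700 UMIs in SAR131675, 85.6% of 1329 in control diet, 87.7% of 1708 in LNR and 85.4% of 1778 in sham. LEC-like cells held 1, 4, 3 and 4 of these UMIs. Dendritic-like cells held 2 in SAR131675, 1 in control diet and 0 in LNR and sham, where the upper bounds were 5.59 and 5.30 CPM. Fibroblast-like cells had the highest level, at 49.4 CPM in SAR131675 (45.9 to 53.2), 54.5 in control diet (50.1 to 59.3), 115 in LNR (106 to 125) and 136 in sham (125 to 147). Mesenchymal cells that joined markers of several types came next, at 36.4 in SAR131675 (33.9 to 39.1), 31.3 in control diet (28.8 to 34.0), 40.1 in LNR (37.5 to 43.0) and 47.9 in sham (44.7 to 51.1). Mural-like cells, the pericytes and smooth muscle of blood vessels, had 16.2 in SAR131675 (13.1 to 19.8), 30.5 in control diet (25.2 to 36.5), 25.3 in LNR (20.1 to 31.6) and 35.2 in sham (28.5 to 43.0). The intervals of these neighbors in the order were apart in all libraries except for the last pair in control diet.

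Within the mesenchyme, the clusters with most Ccl19 were alike in both pairs. One had Mfap4 and Crabp1 among its leading genes and had 81.8 CPM of Ccl19 in SAR131675, 75.1 in control diet, 115 in LNR and 136 in sham. The other was led by Pi16, Clec3b, C3 and Myoc, of which Pi16 and Clec3b are known from adventitial fibroblasts, and had 36.4, 31.3, 50.5 and 58.0. The first cluster held 41.4%, 41.2%, 34.1% and 33.1% of all Ccl19 UMIs in these libraries and the second 44.4%, 43.0%, 42.0% and 41.4%. Even in the first cluster most cells had none. A Ccl19 UMI was seen in 262 of its 900 cells in SAR131675, 238 of 854 in control diet, 272 of 1047 in LNR and 263 of 922 in sham. Over the whole fibroblast-like class the shares were 18.1%, 19.9%, 26.0% and 28.5%, against 0.0406% to 0.112% of basal keratinocyte-like cells. In the diet pair this class held another cluster, with Ccl19 in 10 of 599 cells in SAR131675 and 1 of 348 in control diet. The deposited matrices also list Ccl19-ps2, a pseudogene copy, with 1850 UMIs in SAR131675, 1933 in control diet, 1004 in LNR and 758 in sham, and its level over cell classes followed that of Ccl19 most closely of all genes compared (Pearson r of 0.938 over 84 points, each a class in a library). UMIs of Ccl19 and Ccl19-ps2 can be split between them, so levels of Ccl19 are uncertain to that extent.

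**Figure D3:**
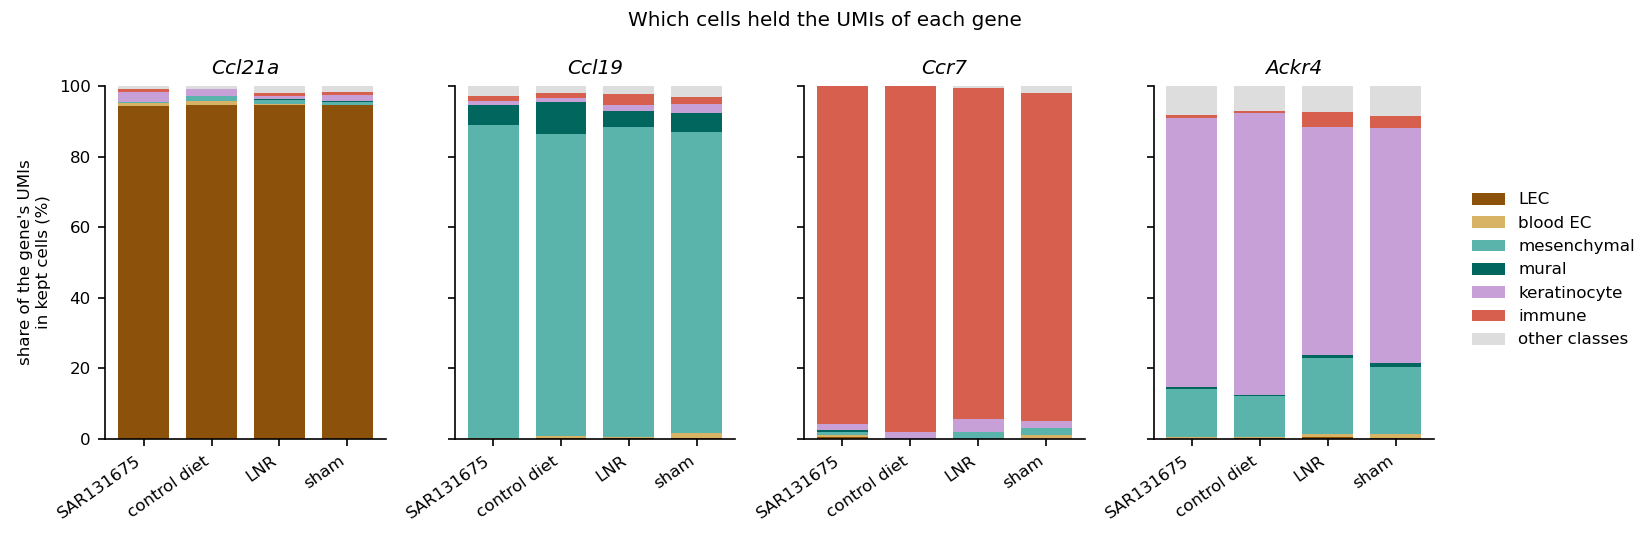
Share (percent) of each gene's UMIs in kept cells that each cell class held, as stacked bars from 0 to 100 for the 4 libraries. LEC-like cells held at least 94.5% of Ccl21a, mesenchymal classes at least 85.4% of Ccl19, immune cells at least 93.1% of Ccr7, and keratinocyte classes at least 64.6% of Ackr4.

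Ccr7, the receptor, had the fewest UMIs of the 4 genes. There were 196 UMIs in 84 cells in SAR131675, 163 in 62 cells in control diet, 214 in 58 cells in LNR and 101 in 53 cells in sham, which is 0.256% to 0.293% of the kept cells. Immune cells held 95.9%, 98.2%, 93.9% and 93.1% of these UMIs. Among the named classes, B-like cells had the highest level, at 236 CPM in SAR131675 (182 to 302), 494 in control diet (393 to 614), 308 in LNR (195 to 461) and 167 in sham (107 to 249). In LNR, an immune group of 12 cells with erythroid genes stood at 399.5 CPM through 1 cell with 20 UMIs. The B-like class was small, with 70, 45, 36 and 59 cells, and its markers were present: Cd79a, part of the B cell receptor, was seen in 93.2% to 100% of its cells. A Ccr7 UMI was seen in 52.9% of B-like cells in SAR131675, 73.3% in control diet, 36.1% in LNR and 28.8% in sham, where the median cell held 3193, 3056, 1501 and 1197 UMIs of all genes. In the keratinocyte classes, which should lack Ccr7, the share was 0.0163% to 0.0376%. Most positive B-like cells had only 1 or 2 UMIs, and the highest had 8, 8, 4 and 5.

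A smaller share of dendritic-like cells had Ccr7. The cells with 5 or more UMIs were 2, 4, 7 and 1 dendritic-like and 1, 5, 0 and 1 B-like cells in SAR131675, control diet, LNR and sham. In SAR131675, 9 of 210 cells had Ccr7, with 24, 7 and otherwise 1 UMI each. In control diet, 9 of 110 cells had it, with 8, 7, 5, 5, 4, 3, 2, 2 and 1 UMIs. In LNR, 13 of 178 cells had it, with 27, 23, 22, 16, 9, 6, 6, 3, 3, 1, 1, 1 and 1 UMIs. In sham, 14 of 193 cells had it, with 8, 4 and 3 UMIs in the top cells, 2 in the next 4 and 1 in the other cells. The levels were 20.6 CPM in SAR131675 (14.6 to 28.2), 38.7 in control diet (27.3 to 53.4), 180 in LNR (149 to 216) and 43.1 in sham (29.1 to 61.5). The interval of LNR dendritic-like cells overlapped that of LNR B-like cells, and in the other libraries the intervals of these classes were apart. Langerhans cells are the dendritic cells of the epidermis. The Langerhans-like cells, joined with an unnamed cluster whose markers pointed most to them, had 15, 10 and 8 UMIs in 3 cells of SAR131675, 9, 1 and 1 in control diet, 3, 2 and 1 in LNR, and 1 in a single cell in sham. T or innate lymphoid-like cells had 22.2, 17.1, 12.9 and 9.74 CPM, and macrophage-like cells had at most 1 UMI in a library. Monocyte-like cells had 9, 0, 10 and 14 UMIs, and the 51.7 CPM in sham came from 2 cells with 8 and 6.

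**Figure D4:**
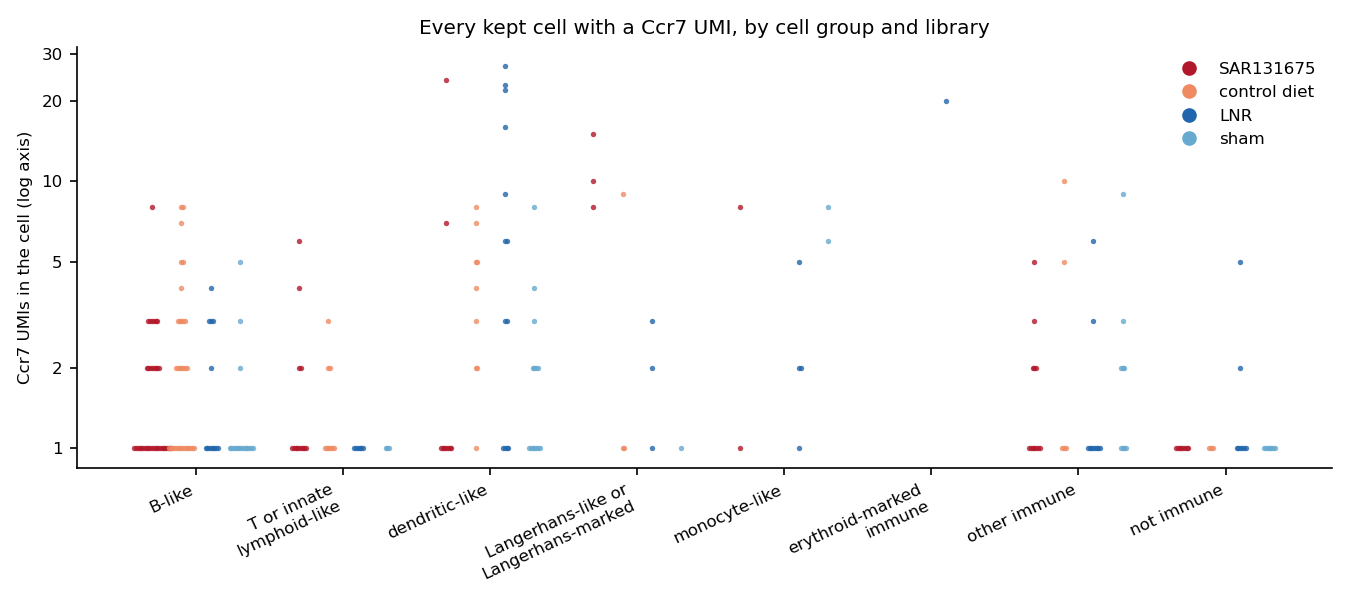
Ccr7 UMIs (log axis) in each kept cell that had at least 1, by cell group on the horizontal axis and by library in color, 1 point a cell. B-like cells are many with 8 UMIs or fewer, and the cells with 20 or more are 1 dendritic-like cell of SAR131675, 3 dendritic-like cells of LNR and 1 cell of LNR in an immune group with erythroid genes.

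Some of the dendritic-like and Langerhans-like cells with Ccr7 also carried genes of dendritic cell maturation. Pooled in a library, they were 12 cells in SAR131675, 12 in control diet, 16 in LNR and 15 in sham, against 318, 201, 230 and 292 such cells without Ccr7. Fscn1, the actin-bundling protein of mature dendritic cells, had 1104 CPM in the SAR131675 cells with Ccr7 and 2.00 in those without. It had 358 and 1.13 in control diet, 460 and 1.09 in LNR, and 348 and 1.69 in sham. Ccl22, a chemokine that mature dendritic cells secrete, had 1326 and 13.7 in SAR131675, 560 and 14.1 in control diet, 1829 and 27.3 in LNR, and 812 and 21.9 in sham. Tmem123 and Samsn1 were also higher in the cells with Ccr7 in all 4 libraries. Of the list genes with at least 20 UMIs, 16 of 16 were higher in SAR131675, 14 of 16 in control diet, 14 of 15 in LNR and 11 of 13 in sham. Their intervals lay above 0 for 16, 9, 13 and 7 genes in the same order. Over all genes counted in this way, 36.4%, 44.2%, 39.9% and 34.7% were higher. Not every gene of the maturation list went this way: Ccl17 was lower in the cells with Ccr7 in control diet (log2 ratio -1.04, -2.06 to -0.18) and Tbc1d4 in sham (-0.50, -0.96 to -0.08), and the interval of Cd86, which encodes a costimulatory ligand, held 0 in control diet, LNR and sham. Fscn1 came from few of these cells, 25% of those with Ccr7 in SAR131675, control diet and LNR and 13.3% in sham, and Ccl22 was seen in 33.3%, 16.7%, 68.8% and 26.7%. The median depth of the cells with and without Ccr7 was 9923 and 9783 in SAR131675, 9854 and 9606 in control diet, 5184 and 4125 in LNR, and 3669 and 4202 in sham. Of all cells with Ccr7, 21.4% in SAR131675 and 14.5% in control diet had UMIs of at least 2 class markers of mature dendritic cells. The shares of other immune cells were 22.8% and 23.8%. In LNR and sham the shares were 29.3% and 18.9% of cells with Ccr7, against 5.53% and 6.52% of other immune cells. The values for cells with Ccr7 describe few cells of single libraries and were not tested.

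Ackr4, the scavenging receptor, was spread over keratinocytes and fibroblasts. Keratinocyte classes held 76.3% of its 11664 UMIs in SAR131675, 79.9% of 9984 in control diet, 64.6% of 4082 in LNR and 66.6% of 3951 in sham. Basal keratinocyte-like cells, the dividing layer on the basement membrane, had 61.9 CPM in SAR131675 (60.3 to 63.5), 77.4 in control diet (75.3 to 79.5), 57.6 in LNR (55.2 to 60.004) and 51.2 in sham (49.1 to 53.4). The suprabasal cells above them had 14.2, 14.2, 11.3 and 11.8. A UMI was seen in 40.7%, 45.9%, 30.7% and 27.6% of basal and in 14.4%, 14.0%, 10.3% and 10.2% of suprabasal keratinocyte-like cells. Fibroblast-like cells had 83.1 CPM in SAR131675 (78.4 to 87.9), 81.2 in control diet (75.7 to 86.9), 69.7 in LNR (62.6 to 77.3) and 69.0 in sham (61.4 to 77.3), and these intervals overlapped those of basal cells in control diet alone. Sebaceous-like cells had 67.5 and 60.8 in the diet pair and 1.77 and 1.90 in LNR and sham, where the class rested on 111 and 169 cells, and the reason for this gap between the pairs was not tested.

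Ackr4 also varied among basal clusters. In LNR and sham, the basal cluster led by Ccl27a and Sostdc1 had 97.1 and 86.6 CPM, and the basal cluster led by the cell cycle genes Nusap1, Cenpf and Top2a had 22.7 and 23.7. In the diet pair, the basal cluster led by Tspear and Sox6 had 84.6 and 93.0, and that led by the replication genes Uhrf1 and Hells had 38.5 and 54.0. An unnamed cluster of 193 and 156 cells in LNR and sham, led by the genes a, Igfbp3, Crabp1 and Rspo3, had the highest level of that pair, 141 and 151. In contrast, LEC-like cells had 7, 8, 19 and 10 Ackr4 UMIs in SAR131675, control diet, LNR and sham, seen in 2.43% to 5.56% of cells, close to the 3.66% to 4.59% of blood endothelial-like cells. B-like, dendritic-like and macrophage-like cells had between 0 and 2 UMIs in a library. In the Mfap4 and Crabp1 cluster, where Ccl19 and Ackr4 were both high, Ackr4 was seen in 32.1% of the cells with Ccl19 and 40.6% of those without in SAR131675, 27.3% and 35.4% in control diet, 19.1% and 22.3% in LNR, and 19.8% and 23.4% in sham. The intervals of both shares overlapped in each library. Over all mesenchymal cells the shares were 20.7% with Ccl19 and 17.9% without in SAR131675, 15.9% and 16.6% in control diet, 11.7% and 8.85% in LNR, and 10.8% and 8.53% in sham.

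The first comparison, SAR131675 against control diet, asks what blocking VEGFR3 signaling did to the digit. Ccl21a in LEC-like cells had a log2 ratio of 0.12 (0.09 to 0.15). In the wider set of all kept cells with UMIs of 2 or more LEC markers it was -0.094 (-0.12 to -0.067). That set held 499 and 489 cells at 4528 and 4832 CPM, against 247 and 260 LEC-like cells at 13139 and 12109. Over all kept cells the ratio was -0.35 (-0.38 to -0.33), beside a share of LEC-like cells of 0.849% in SAR131675 (0.747% to 0.962%) and 1.08% in control diet (0.955% to 1.22%). Ccl19 over all kept cells had 0.00 (-0.10 to 0.11), and -0.23 (-0.30 to -0.16) when its pseudogene was added. In mural-like cells Ccl19 was lower in SAR131675 by more than 1.5-fold, with a log2 ratio of -0.91 (-1.32 to -0.51). There 6.02% of 10982 genes passed 1.5-fold in either direction. For this mural ratio, no alternative and no sum with the pseudogene was computed. In fibroblast-like cells the Ccl19 ratio was -0.14 (-0.30 to 0.02). Ackr4 in all keratinocyte classes had -0.19 (-0.23 to -0.14), in basal cells -0.32 (-0.38 to -0.27), in suprabasal cells 0.00 (-0.12 to 0.11) and in fibroblast-like cells 0.03 (-0.10 to 0.16). Of these, only Ccl19 in mural-like cells passed 1.5-fold. In this pair 9% of 17868 genes passed it in the keratinocyte classes, 5.69% of 15478 in basal cells, 7.76% of 13114 in fibroblast-like cells, 9.63% of 8092 in LEC-like cells and 6.79% of 20601 over all kept cells.

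Ccr7 in immune cells had 12.9 CPM in SAR131675 and 15.8 in control diet, a log2 ratio of -0.30 whose interval (-0.61 to 0.02) held 0, where 6.47% of 13437 genes passed 1.5-fold. Without the 1 cell of 20 or more Ccr7 UMIs the ratio was -0.49 (-0.82 to -0.17). That cell lay in SAR131675, so leaving it out could only lower the ratio. In B-like cells the ratio was -1.06 (-1.56 to -0.57) and in dendritic-like cells -0.91 (-1.61 to -0.22), where 22.6% of 1783 and 9.88% of 6673 genes passed 1.5-fold in either direction. The dendritic-like value depended on where the cells were placed: with the Langerhans-marked cells joined to them, Ccr7 had 71 UMIs in SAR131675 and 48 in control diet. Their joined levels were 22.7 and 25.3 CPM, and the ratio was then -0.15 (-0.70 to 0.41). The B-like cells of these libraries also differed in Ighm, the heavy chain of IgM, but in the other direction, with 10004 CPM in SAR131675 and 2466 in control diet, while Ms4a1, which encodes CD20, had 772 and 800. The part of these differences between the B-like cells in the Ccr7 result was not tested. Without B-like cells the ratio for immune cells was 0.12 (-0.29 to 0.55). Fscn1 had 1 UMI in the 210 dendritic-like cells of SAR131675, so its 139 UMIs in cells with Ccr7 came almost wholly from the 3 Langerhans-marked cells with 15, 10 and 8 Ccr7 UMIs.

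The second comparison, LNR against sham, asks what removing the draining nodes did to the digit. Ccl21a in LEC-like cells had a log2 ratio of 0.11 (0.07 to 0.14), and over all kept cells 0.30 (0.26 to 0.33). The first value turned to -0.09 (-0.16 to -0.02) with cells thinned to 1500 UMIs and to -0.03 (-0.06 to 0.01) without called doublets, so no direction is given. Ccl19 over all kept cells had 0.02 (-0.08 to 0.11), in fibroblast-like cells -0.24 (-0.40 to -0.07) and in mural-like cells -0.47 (-0.92 to -0.03). Ackr4 had 0.14 (0.06 to 0.21) in all keratinocyte classes, 0.17 (0.08 to 0.26) in basal cells, -0.06 (-0.31 to 0.18) in suprabasal cells and 0.01 (-0.21 to 0.24) in fibroblast-like cells. None of these passed 1.5-fold. In this pair 2.83% of 14572 genes passed it in the keratinocyte classes, 2.57% of 13194 in basal cells, 3.99% of 10276 in fibroblast-like cells, 5.25% of 8814 in mural-like cells, 6.38% of 6333 in LEC-like cells and 3.68% of 17394 over all kept cells.

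Ccr7 was the member with the largest ratio in this pair. In immune cells it had 17.1 CPM in LNR and 9.24 in sham, a log2 ratio of 0.89 (0.53 to 1.26), where 5.2% of 12478 genes passed 1.5-fold in either direction. In dendritic-like cells the ratio was 2.07 (1.48 to 2.70), where 7.88% of 3323 genes passed it. The share of dendritic-like cells with a Ccr7 UMI was nearly equal, 7.30% in LNR and 7.25% in sham, and the cells with 5 or more UMIs were 7 in LNR and 1 in sham. The ratio for immune cells rested on 4 LNR cells with 20 or more UMIs, 3 dendritic-like and 1 in the group with erythroid genes. Without them it was 0.0064 (-0.40 to 0.42). No sham cell had more than 9 UMIs, so leaving such cells out could only lower the ratio. The dendritic-like ratio was not computed without its 3 such cells, which held 27, 23 and 22 of the 119 Ccr7 UMIs of this class in LNR. All dendritic-like cells of sham held 30. With cells thinned to 1500 UMIs the ratio for immune cells was 0.51 (-0.17 to 1.21). It turned to -2.44 when each library was clustered alone, where an LNR cluster with 184 Ccr7 UMIs stayed without a class name. In B-like cells the ratio was 0.88 (-0.01 to 1.77) from 23 and 24 UMIs, too few for the minimum of 50 UMIs set for counted genes, with Ighm at 1765 CPM in LNR and 12590 in sham. For T or innate lymphoid-like cells, with 6 and 3 UMIs, no difference was detectable at this depth.

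**Figure D5:**
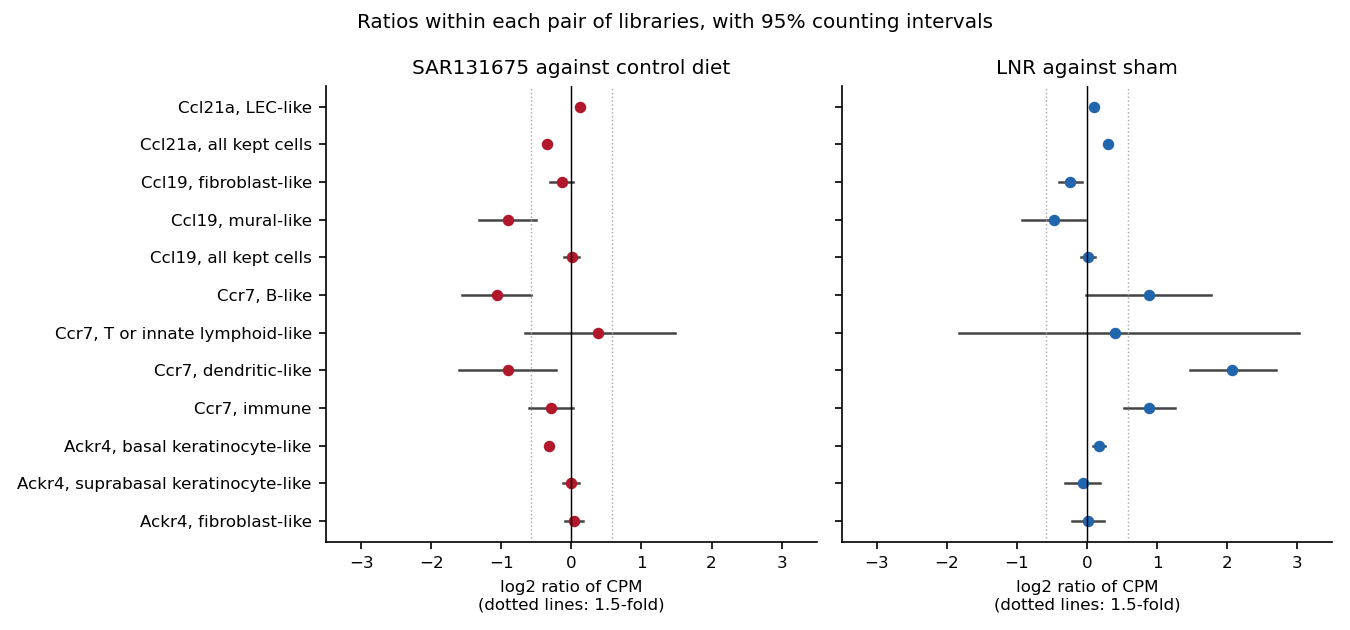
Log2 ratio of CPM for 12 gene and cell class combinations, SAR131675 against control diet on the left and LNR against sham on the right, with 95% counting intervals as lines and 1.5-fold as dotted lines. Past the dotted lines are Ccl19 in mural-like cells (-0.91) and Ccr7 in B-like (-1.06) and dendritic-like cells (-0.91) on the left, and Ccr7 in B-like (0.88), dendritic-like (2.07) and all immune cells (0.89) on the right.

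Genes that work beside CCR7 were read from lists of named genes. In LEC-like cells, 12 of 15 genes for the entry of leukocytes into lymphatics had 50 or more UMIs in the diet pair, and 1 was higher and 0 lower by 1.5-fold. The median log2 ratio was 0.12, beside 0.00 over all genes, of which 9.63% passed in either direction, so the count was near that share. The 1 gene was Icam1, an adhesion molecule that leukocytes bind, with 237 CPM in SAR131675 and 138 in control diet (log2 0.78, 0.54 to 1.01). In LNR against sham, of 11 such genes Cxcl12, the ligand of CXCR4, was higher with 126 and 67.5 CPM (0.90, 0.52 to 1.29), and Cd99l2, an adhesion protein of endothelial junctions, lower with 15.9 and 31.4 (-0.98, -1.80 to -0.20), where 6.38% of all genes passed. The 3 genes of this list with the highest level in LEC-like cells were Lyve1, Pecam1 and, in the diet pair, S1pr1, and none of these passed 1.5-fold. Among the other atypical chemokine receptors in LEC-like cells, Ackr2, which removes inflammatory chemokines, had 54.2 CPM in LNR and 85.6 in sham (-0.66, -1.10 to -0.22), and 74.9 and 93.4 in the diet pair (-0.32, -0.67 to 0.03).

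The maturation genes of dendritic cells were read in the dendritic-like class. In LNR against sham, 5 of 12 were higher by 1.5-fold and 1 was lower, with a median log2 ratio of 0.38 beside -0.02 over all genes, of which 7.88% passed 1.5-fold in either direction. Few cells carried these genes: in LNR, 2.25% of the 178 dendritic-like cells had an Fscn1 UMI and 6.74% a Ccl22 UMI. The shares in sham were near these, 2.07% and 4.66% of 193 cells, and for Tbc1d4 they were 7.87% in LNR and 8.29% in sham. With the Langerhans-like cells of LNR added, the 16 cells with Ccr7 held 41 Fscn1 UMIs and the 230 others 1, and for Ccl22 they held 163 and 25. Ccl22 had 229 CPM in LNR and 83.3 in sham (1.46, 1.01 to 1.92). Samsn1 had 0.97, Fscn1 0.91, Tbc1d4 0.90 and Ccl17, a chemokine related to Ccl22, 0.83, while Relb, a subunit of NF-kappaB, had -0.84 (-1.73 to 0.00). In SAR131675 against control diet, 0 of 13 were higher and 3 were lower, Ccl22 at -0.79, Tbc1d4 at -0.79 and Samsn1 at -0.75, with a median of -0.23 beside -0.03 over all genes, of which 9.88% passed. With the Langerhans-marked cells joined, none of these 3 passed 1.5-fold: Ccl22 had 0.38 (0.03 to 0.75), Tbc1d4 -0.36 (-0.47 to -0.25) and Samsn1 -0.15 (-0.45 to 0.16), so no direction is given for this pair. In LNR against sham the joined cells had 1.64 for Ccl22, 1.18 for Fscn1 and 1.11 for Samsn1, while Tbc1d4 turned to -0.59 (-0.72 to -0.46). In all immune cells of SAR131675 against control diet, of which dendritic-like cells were a part, 4 of 20 were higher, 0 lower, with a median of 0.19 beside -0.03, where 6.47% of all genes passed. There Fscn1 had 12.7 and 5.83 CPM (1.12, 0.69 to 1.57) and Ccl22 18.6 and 9.79 (0.93, 0.59 to 1.28). In SAR131675, 139 of the 185 Fscn1 UMIs and 167 of the 272 Ccl22 UMIs lay in the 12 dendritic-like and Langerhans-marked cells with Ccr7, and in control diet 46 of 59 and 72 of 99 did. Without these cells in both libraries, Fscn1 had 3.18 and 1.30 CPM (1.29, 0.38 to 2.30) and Ccl22 7.26 and 2.70 (1.42, 0.80 to 2.09). Of the 46 and 13 Fscn1 UMIs left, 6 and 2 lay in dendritic-like and Langerhans-marked cells, and of the 105 and 27 Ccl22 UMIs 41 and 25. Ccl22 in those cells had 13.7 and 14.1 CPM, and the other UMIs left lay in other immune cells. Called doublets made up 14.8% and 2.62% of all immune cells, and their part in these ratios was not tested. In LNR against sham, 3 of 20 were higher and 1 lower in all immune cells, with a median of 0.17 beside 0.00, where 5.2% of all genes passed. Ccl22 in these immune cells had 1.06 (0.70 to 1.43), and 0.21 (-0.40 to 0.82) without the dendritic-like and Langerhans-marked cells with Ccr7. Fscn1 had 0.70 (0.15 to 1.27), and 0.66 (-0.13 to 1.48) without them.

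Of the 17 genes of the CCR7 pathway and its regulation, 17 had 50 or more UMIs in immune cells of the diet pair and 16 in LNR and sham. Only Lta, which encodes lymphotoxin alpha, passed 1.5-fold, in the diet pair, with 3.15 CPM in SAR131675 and 1.29 in control diet (1.29, 0.38 to 2.31). Over all genes in immune cells, 6.47% passed in the diet pair and 5.2% in LNR against sham, so these counts were near those shares. Gnai2, the G protein subunit through which CCR7 signals, had 774 and 853 in the diet pair (-0.14, -0.18 to -0.10) and 614 and 658 in LNR and sham (-0.10, -0.15 to -0.05). Of the 9 other homeostatic chemokines and their receptors, 7 were counted in immune cells of the diet pair, with 1 higher and 2 lower by 1.5-fold (6.47% of all genes passed), and 6 in LNR and sham, with 1 higher and 0 lower (5.2%). In the diet pair Ccl27a had 9.32 and 5.64 CPM (0.73, 0.27 to 1.198), Cxcl12 25.008 and 38.6 (-0.62, -0.83 to -0.42) and Cxcl13, which attracts B cells, 18.8 and 45.1 (-1.26, -1.49 to -1.04). In LNR and sham Cxcl14 had 145 and 89.6 (0.69, 0.58 to 0.81), while Cxcl13 had 10.5 and 12.0 (-0.20, -0.57 to 0.18). The immune cells included clusters whose markers pointed most to other tissues, with 231, 169, 615 and 523 cells in SAR131675, control diet, LNR and sham. Called doublets made up 14.8%, 2.62%, 13.6% and 18.9% of the immune cells in the same order. How much of these chemokine levels came from cells other than leukocytes was not tested. In keratinocyte classes, 2 of 7 were higher and 0 lower in the diet pair, where 9% of all genes passed, and 1 of 6 was higher and 0 lower in LNR against sham, where 2.83% passed. Ccl20, the ligand of CCR6, had 2.42 and 1.07 CPM in the diet pair (1.18, 0.94 to 1.41), and Cxcl12 had 12.0 and 7.47 (0.69, 0.60 to 0.78). The 1 gene in LNR and sham was Cxcr4, with 1.06 and 0.531 (1.00, 0.45 to 1.56).

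The genes whose levels over cell classes were most like those of each member were ranked by Pearson correlation of log2(level + 10) over 84 points, each a class in a library, among 14514 genes. Classes of 1 library share its depth, so these values only describe likeness. For Ccl21a they were Mmrn1 (0.983), Flt4 (0.974), Nts (0.970), Sh3gl3 (0.968) and Prox1 (0.961). After Ccl19-ps2, those for Ccl19 were Mmp23, Adcyap1r1, C1qtnf2 and Srpx (0.937 to 0.929). For Ccr7 they were Map4k1 (0.848) and the B cell genes Cd79b, Igkc, Tnfrsf13b and Ighm (0.818 to 0.778). For Ackr4 they were Adh7 (0.869), Col7a1, Aldh3a1, Igfbp2 and Sp9 (0.861 to 0.806).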

How the data were processed

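Single-cell RNA-seq (10x Genomics Single Cell 3' v3) of samples labelled as P3 digit was read from 4 filtered matrices of UMI counts, 1 per condition. The counts were made and deposited by the authors with Cell Ranger. The submitters' processing notes name version 6.1.2 and GRCm39 for all libraries, while the headers of the diet matrices name 8.0.1. Total counts were 585284877 UMIs in SAR131675, 448276501 in control diet, 168507188 in LNR and 175998346 in sham. Cells were kept at 200 to 5500 genes, at most 30000 UMIs and at most 10% mitochondrial UMIs, limits that the study states for the lymph node data. The libraries of a pair were clustered together (scanpy 1.11.5, 2000 variable genes, 30 principal components, 20 neighbors, Leiden resolution 0.7) without integration, and leukocytes were clustered again at resolution 1.2, chosen after 0.7 and 1.2 had been seen. The 4 genes and their copies took no part in clustering or naming. Clusters were named from marker lists with at least 3 detected markers, and other clusters stayed unnamed or were joined under a broader name. Scrublet called 4.55%, 1.01%, 6.00% and 8.12% of cells doublets against an expected 23.3%, 19.2%, 15.9% and 16.5%, and doublets were left in.

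UMIs were summed over the cells of a class. Intervals (scipy 1.17.1) cover counting error only, and cells of 1 pooled library are not replicates, so no test between conditions was made. A ratio was counted among genes with 50 or more UMIs in both libraries of a pair together. The genes named are the 4 members, their copies, genes of the lists, class markers and the 5 genes most like each member. The members and lists were chosen with earlier results of these data known. The calculation was tested on simulated data. Its counts were drawn as Poisson from whole-library sums, so it checks the arithmetic and does not cover UMIs held by few cells. Sequences and gene order come from GENCODE M21 and GRCm38.p6, another build than the counts. Alternatives were other cell limits, doublet removal, resolutions 0.4 and 1.2, libraries clustered alone, thinning to 1500 UMIs and classes taken by markers. Alternatives without shared barcodes, B-like cells or cells with 20 or more Ccr7 UMIs, with Ccl19-ps2 added, with Langerhans-marked cells joined to dendritic-like cells, and without such cells with Ccr7 were chosen after seeing the data.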

Additional observations from a re-analysis of the deposited data

Results flagged for a closer look

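Many Ccl21a UMIs lay in barcodes over the upper limits on cells and so entered the comparisons only where these limits were lifted. These barcodes held 21360 Ccl21a UMIs in SAR131675 (48.5% of all its Ccl21a UMIs) and 24028 in control diet (51.6%), against 1561 in LNR (9.99%) and 1183 in sham (8.85%). They held 41.0%, 39.8%, 13.6% and 12.9% of all UMIs of these libraries in the same order. When cells were clustered without the upper limits, 53 LEC-like cells of SAR131675 and 53 of control diet lay over them, with 12006 and 12052 CPM of Ccl21a, and 6 of LNR and 3 of sham, with 7617 and 8908.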

How the results depend on the processing

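No paired analysis was possible because each condition had 1 library. Of 68 alternatives for 8 ratios, 44 stayed within the counting interval, 19 moved past it and 5 reversed. Some of the 44 changed few or no cells, so they are not separate checks. For Ccl21a in LNR against sham, resolution 0.4 and the setting without shared barcodes kept the same 234 and 230 cells and the same UMIs. Ccl21a in LEC-like cells of SAR131675 against control diet (log2 ratio 0.12) was 0.035 without upper limits on cells, 0.21 without called doublets, 0.037 with cells thinned to 1500 UMIs, -0.094 in cells taken by markers and -0.35 over all kept cells. For LNR against sham (0.11) it was -0.026 without called doublets, -0.090 thinned, 0.21 with libraries clustered alone, 0.38 by markers and 0.30 over all kept cells. Cells taken by LEC markers were wider sets than the class. They were 499 and 489 against 247 and 260 cells in the diet pair, and 376 and 388 against 234 and 230 in LNR and sham. Ccr7 in immune cells of the diet pair (-0.30) was 0.024 without upper limits and 0.12 without B-like cells. It was -0.49 (-0.82 to -0.17) without cells of 20 or more Ccr7 UMIs and -0.50 (-0.81 to -0.19) by markers, both with intervals below 0. For LNR against sham (0.89) it was 0.51 thinned, 1.36 by markers, 0.0064 without cells of 20 or more Ccr7 UMIs, and -2.44 with libraries clustered alone, where an LNR cluster of 462 cells with 184 Ccr7 UMIs, all immune in the joint clustering, got no class name. In the diet pair, immune markers took 4399 and 2880 cells with 189 and 160 Ccr7 UMIs, against 1921 and 1410 immune cells with 188 and 160. Cells of 20 or more Ccr7 UMIs lay only in SAR131675 and LNR, so leaving them out could only lower the ratio of either pair. Ccl19 over all kept cells was 0.20 without upper limits, -0.14 thinned and -0.23 with Ccl19-ps2 added in the diet pair (0.00), and 0.15 thinned and 0.17 with Ccl19-ps2 in LNR against sham (0.02). Ackr4 in keratinocyte-like cells was -0.14 by markers and -0.13 over all kept cells in the diet pair (-0.19), and 0.36 with libraries clustered alone in LNR against sham (0.14). In the diet pair, the keratinocyte markers took 27894 of 29076 and 21968 of 24030 kept cells. This alternative was thus close to the ratio over all kept cells and is no separate check on keratinocytes. With Langerhans-marked cells joined to dendritic-like cells, Fscn1 turned from -5.54 to 0.88 in the diet pair, Tbc1d4 turned from 0.90 to -0.59 in LNR against sham, and Ccr7 in the diet pair went from -0.91 to -0.15. Except for the unnamed LNR cluster, the cause of these changes was not tested. Ccr7 had 101 to 214 UMIs in a library, which limits what its ratios can show.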
